A study of Mus musculus with 375 samples.

Results

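The genes of the mitochondrial ribosome were followed in left ventricular cardiomyocytes of mice with pressure overload. They were taken as every gene symbol of the count table that begins with Mrpl or Mrps and a number, without pseudogenes, which gave 78 of 21872 genes: 49 named for the large subunit and 29 named for the small subunit. The cells were single cardiomyocytes of male C57BL/6N mice, isolated 2 weeks after transverse aortic constriction (TAC, a surgical narrowing of the aorta that loads the left ventricle) and sequenced one by one with Smart-seq2, a full-length method without molecular identifiers. All groups had TAC, and the mice were 8 weeks old by the study's methods. CD8-depleted mice received an antibody against CD8, which removes CD8+ T cells, on day 0 and every 3 days after that. CD3e-/- mice lack a subunit of the T cell receptor complex and so have no T cells, and WT mice carried neither change. Each group came as 2 numbered sets of cells, and the sets are the replicates (n = 2 per group). The study's methods state that the cells for single-cell sequencing came from 2 mice. The labels do not tie a set to a mouse, so a p-value here measures the spread between sets, which may be technical.

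Mitochondrial ribosomes translate only the 13 proteins encoded in mitochondrial DNA, all of them subunits of the respiratory chain and ATP synthase. Their RNA comes from mitochondrial DNA, whereas all their proteins are encoded in the nucleus, made in the cytosol and imported. The small subunit reads the messenger RNA and the large subunit forms the peptide bond. The heart relies on oxidative phosphorylation for most of its ATP, and inherited defects of several of these proteins cause cardiomyopathy in humans.

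Of 375 cells, 320 had at least 3000 detected genes and were not part of an identical pair. They comprised 62 and 49 CD8-depleted cells, 11 and 77 CD3e-/- cells, and 59 and 62 WT cells in sets 1 and 2. Levels are counts per 1000000 counts on nuclear genes (CPM), and set totals of nuclear counts ran between 604652 and 24057660. Mitochondrially encoded (mt-) genes took a median of 94.0% and 90.8% of the counts per cell in the CD8-depleted sets, 94.1% and 92.1% in the CD3e-/- sets, and 77.3% and 85.3% in the WT sets. CD3e-/- set 1 stood apart. The 8 cardiomyocyte markers summed to 32654 CPM, against 89468 to 114354 CPM in the other 5 sets, with none of them at 0 in any set, and its olfactory receptor genes summed to 13206 CPM, against 53.8 to 222 CPM elsewhere. It also had the highest sums of fibroblast (440 CPM), endothelial (971 CPM), mural (1040 CPM) and leukocyte (112 CPM) markers, which lay at 25.1 to 301, 86.9 to 333, 159 to 331 and 3.51 to 18.8 CPM in the other sets. Of these markers, Pdgfra was at 0 in CD8-depleted set 1 and WT set 2, and 2 to 4 of the 8 leukocyte markers were at 0 in each set. The leukocyte marker Cd3e, the gene disrupted in CD3e-/- mice, had 6.62 and 1.54 CPM in CD3e-/- sets. It had 0.13 and 0.37 CPM in CD8-depleted sets and 0 CPM in both WT sets, and the reads behind these counts were not examined. Because CD3e-/- set 1 stood apart, results are given over all 6 sets and over the 5 sets without it.

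Transcripts of the mitochondrial ribosome were found in nearly all members. Counts were present for 77 of the 78 genes in 5 sets and for 75 in CD3e-/- set 1. Mrpl53 (chromosome 6) had 0 counts in every cell kept. As annotated in the table, 88.0% of its exon length is shared with Gm42688, and how reads in shared exons were assigned is not given in the sources used here. Exon bases were shared with another gene in 22 members, in 3 of them over more than 50% of the length. The highest 10 members held 35.7% of the summed level.

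Per kb of exon, the highest members of the large subunit were Mrpl55, Mrpl12 and Mrpl42, with mean levels over 6 sets of 231, 226 and 196 CPM per kb. Mrpl12 lies in the stalk that recruits translation factors and also binds mitochondrial RNA polymerase, and Mrpl42 is a protein that bacterial ribosomes lack. The highest of the small subunit were Mrps21 (243 CPM per kb), Mrps28 (198) and Mrps18c (168), all with bacterial homologues. At the low end, beside Mrpl53, stood Mrpl19 (8.84 CPM per kb) and Mrpl3 (9.86) in the large subunit and Mrps10 (2.64), Mrps5 (5.07) and Mrps25 (5.93) in the small subunit. Mrps25 shares 69.8% and Mrpl19 36% of the exon length with a neighbour, so their levels are less certain. The median member of the large subunit lay at 35.1 CPM per kb and that of the small subunit at 27.0, and members with a bacterial homologue (48) had a median of 38.98, against 28.2 for the 30 members particular to mitochondria. The divisor is the length of all annotated exon bases of a gene, which can exceed that of the transcript present. It was 739 bases in Mrps21, 3682 in Mrpl42, 5450 in Mrpl19 and 6661 in Mrpl3. How far the ranks and medians per kb follow this length was not tested.

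Promoters are shown because motifs of known regulators of mitochondrial genes can be read in them. Whether the motifs bear on the levels of the members was not tested. Promoter windows of RefSeq (GRCm38.p6, the mm10 build, 250 bases before to 50 after the start) were matched to 69 of the 78 members. A motif of nuclear respiratory factor 1 (NRF1, an activator of genes for oxidative phosphorylation), written GCGC and TGCGC with any 1 base between them and searched on both strands, was present in 13 members (18.8%), against 5.19% of the 27025 genes of the promoter table and 10.99% of the 10287 that passed the low-count filter. The next 4 lines give the 100 bases before the start of Mrpl12 at chr11:120484537-120484636 (plus strand), Mrpl30 at chr1:37890377-37890476 (plus strand), Mrpl44 at chr1:79775918-79776017 (plus strand) and Mrpl45 at chr11:97315616-97315715 (plus strand), with the NRF1 letters in capitals. In Mrpl44 and Mrpl45 the motif reads on the opposite strand. Mrpl44 is a double-stranded RNA binding domain protein of the large subunit, and Mrpl45 binds the inner membrane at the exit of the peptide tunnel.
Mrpl12: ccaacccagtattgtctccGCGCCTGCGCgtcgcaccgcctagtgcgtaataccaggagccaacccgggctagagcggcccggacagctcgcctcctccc
Mrpl30: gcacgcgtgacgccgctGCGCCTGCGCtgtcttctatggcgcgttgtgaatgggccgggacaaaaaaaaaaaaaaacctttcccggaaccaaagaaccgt
Mrpl44: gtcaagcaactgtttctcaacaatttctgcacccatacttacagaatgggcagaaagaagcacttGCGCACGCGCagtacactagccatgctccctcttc
Mrpl45: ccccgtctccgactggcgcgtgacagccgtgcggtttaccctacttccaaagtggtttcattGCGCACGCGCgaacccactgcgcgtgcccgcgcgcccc

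The core of the motif of ETS factors, which include GABP (nuclear respiratory factor 2), written CCGGAAG and searched on both strands, was present in 26 members (37.7%), against 9.93% of all genes of the promoter table and 19.2% of those past the filter. It is shown for Mrpl27 at chr11:94653691-94653790 (plus strand), Mrpl51 at chr6:125192100-125192199 (plus strand) and Mrpl52 at chr14:54426809-54426908 (plus strand), again as the 100 bases before the start with the motif in capitals. In Mrpl52 it reads on the opposite strand.
Mrpl27: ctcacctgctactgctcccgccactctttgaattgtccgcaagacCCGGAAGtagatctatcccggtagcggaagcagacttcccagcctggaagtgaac
Mrpl51: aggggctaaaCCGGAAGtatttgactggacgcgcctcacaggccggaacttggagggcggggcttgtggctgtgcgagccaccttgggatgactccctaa
Mrpl52: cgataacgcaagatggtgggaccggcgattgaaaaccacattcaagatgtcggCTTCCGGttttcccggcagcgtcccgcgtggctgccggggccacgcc

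The letters AAGATGGC, a motif of the factor YY1, were found on either strand in 12 members (17.4%), against 3.19% and 5.02%. The member with the most counts, Mrpl42, has them shortly after its start, in the 30 bases at chr10:95501904-95501933 (minus strand) that follow, with the motif in capitals.
Mrpl42: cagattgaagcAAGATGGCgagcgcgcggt

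The letters TATAAA of a TATA box occurred on either strand in 5 members (7.25%), against 15.7% of all genes of the promoter table and 9.76% of those past the filter. In these members they began between −190 and −68 bases from the start, and their use as a TATA box was not tested. The median GC content of the member windows was 58.7%, against 52.7% over the promoter table and 60.3% past the filter. A match is a string of letters and does not show binding. Another gene started on the opposite strand within 500 bases of 25 members (32.1%), against 8.74% of the 21859 nuclear genes, a share not computed for genes past the filter. One such neighbour of Mrps12 is Sars2, the mitochondrial seryl-tRNA synthetase, and Mrpl46 and Mrps11 start head to head with overlapping exons.

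**Figure D1:**
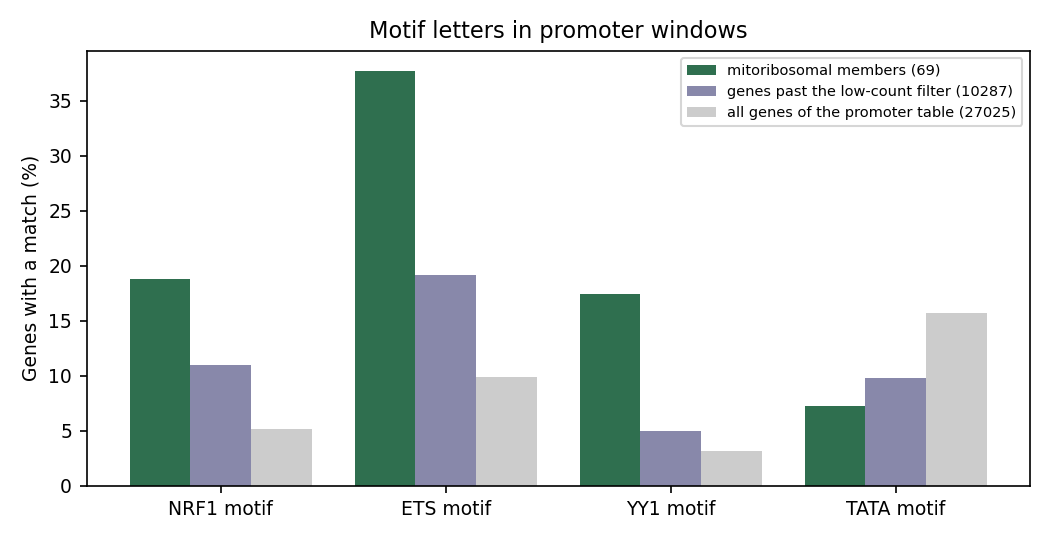
Share of genes (y axis, percent) whose promoter window holds the letters of each motif on either strand (x axis), for the mitochondrial ribosomal members, the genes past the low-count filter and all genes of the promoter table, with numbers of genes in the legend. The member bars are the highest for NRF1 (18.8%), ETS (37.7%) and YY1 (17.4%) and the lowest for TATA (7.25%).

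The summed level of the members was lower in CD8-depleted sets than in WT sets and did not overlap with them. It was 9219 and 9126 CPM in the CD8-depleted sets, 4414 and 10147 CPM in the CD3e-/- sets, and 12162 and 10507 CPM in the WT sets. The CD8-depleted mean was 9173 ± 66.1 CPM and the WT mean 11334 ± 1170 CPM (SD, n = 2 each). The CD3e-/- sets lay far apart, so that their mean of 7280 ± 4053 CPM describes neither of them, and both were below the WT sets.

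Both subunits were lower in CD8-depleted sets, and in the small subunit CD3e-/- set 2 lay between the WT sets. The large-subunit sum was 6564 and 6595 CPM in CD8-depleted sets, 3432 and 7180 CPM in CD3e-/- sets, and 8808 and 7584 CPM in WT sets. The small-subunit sum was 2656 and 2531 CPM in CD8-depleted sets, 982 and 2967 CPM in CD3e-/- sets, and 3353 and 2923 CPM in WT sets. On the log2 scale the CD8-depleted mean over the WT mean was −0.32 for the large and −0.28 for the small subunit, and −0.21 for the large subunit without Mrpl42. The ratio of the large to the small sum was 2.47 and 2.61 in CD8-depleted sets, 3.49 and 2.42 in CD3e-/- sets, and 2.63 and 2.59 in WT sets, so that only CD3e-/- set 1 lay outside 2.42 to 2.63. No test was made on these sums. With mt- counts included in the total, the log2 differences between CD8-depleted and WT were −1.57 and −1.53 for the large and the small subunit. The mt- share of counts was higher in the CD8-depleted sets, as given above.

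**Figure D2:**
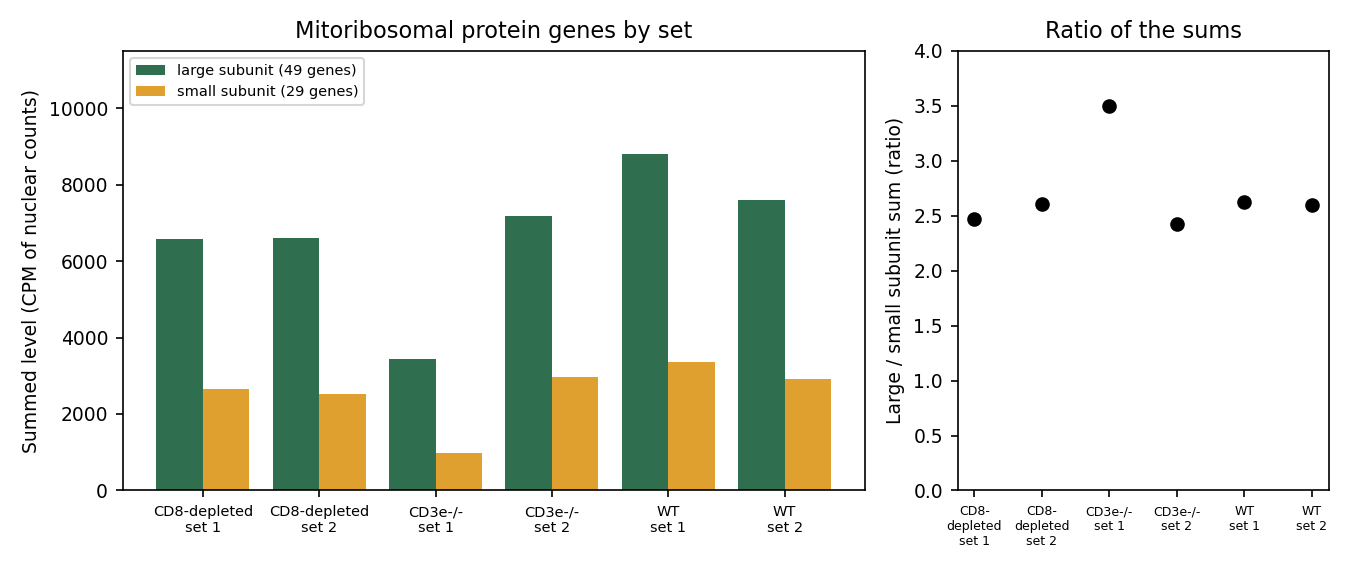
Left, summed level of the large-subunit and small-subunit genes (CPM of nuclear counts, bars) in each of the 6 sets; right, the ratio of the sums (points). The CD8-depleted bars for the large subunit reach 6564 and 6595 CPM and the WT bars 8808 and 7584 CPM, while the ratio stays between 2.42 and 2.63 except for 3.49 in CD3e-/- set 1.

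CD8-depleted and WT cells were compared gene by gene to ask how the cardiomyocytes of mice without CD8+ T cells differed under load. Of the 77 members tested, 56 had a log2 fold change below 0 (CD8-depleted over WT, edgeR's quasi-likelihood test over set sums), against 49.2% of all 12936 genes. The median was −0.27 for members and 0.02 for all genes. It was −0.27 in the large subunit, with 36 of 48 below 0, and −0.25 in the small subunit, with 20 of 29 below 0. In 35 members (45.5%) both CD8-depleted sets lay below both WT sets, against 19.8% of all genes, and in 6 members (7.79%) both lay above, against 21%. No member passed an adjusted p of 0.05 (0.0% of all genes did), none had an unadjusted p under 0.05 (2.64% of all genes, 0.696% lower and 1.94% higher), and DESeq2 and limma called none of them either. Beside this, the sums of fibroblast markers were 77.6 and 301 CPM in CD8-depleted sets and 108 and 25.1 CPM in WT sets, and those of cardiomyocyte markers 114354 and 89468 CPM in CD8-depleted sets and 92198 and 112397 CPM in WT sets. Gene by gene, 7 of the 8 fibroblast markers were above 0 (median log2 1.91) and none passed the adjusted threshold over 6 sets, while over 5 sets Lum, a proteoglycan of the extracellular matrix, passed it (log2 6.20, SE 1.07, adjusted p = 0.002 by edgeR). All 7 endothelial markers were above 0 (median 0.42) and 5 of the 8 cardiomyocyte markers below 0 (median −0.081), none of them called over 6 or 5 sets. The part of these markers in the result was not tested.

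Without CD3e-/- set 1, which shares the fit's estimate of the spread, 59 of 77 members were below 0 (50.7% of all 13374 genes) with a median of −0.30 (−0.02 for all genes). An unadjusted p under 0.05 was then found in 11 members that were lower (14.3%), against 5.34% of all genes, and in 1 that was higher (Mrpl52, 1.3%), against 4.61%, which makes 12 in all against 9.94%. The same 35 and 6 members did not overlap, against 19.7% and 20.1% of the genes in this fit. Again no member passed the adjusted threshold with edgeR, which called 0.239% of all genes. In the same 5 sets DESeq2 called 2 members, Mrpl42 (log2 −1.16, adjusted p = 0.0447) and Mrpl27 (log2 −1.42, adjusted p = 0.0441), among 157 of the 11818 genes to which it gave an adjusted p (1.33%).

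Mrpl27, whose bacterial homologue reaches towards the peptidyl transferase centre, had 46.97 and 29.8 CPM in the CD8-depleted sets, 29.8 and 91.8 CPM in the CD3e-/- sets, and 131 and 85.4 CPM in the WT sets. Both CD8-depleted sets lay below both WT sets, and the fold change was −1.45 (SE 0.84, p = 0.112, adjusted p = 1) over 6 sets and −1.48 (SE 0.41, adjusted p = 0.128) over 5. Mrpl50, particular to mitochondrial ribosomes, had 22.5 and 17.7 CPM in CD8-depleted sets, 36.4 and 49.8 CPM in CD3e-/- sets, and 57.9 and 38.4 CPM in WT sets. It had the smallest p over 6 sets of all members here (log2 −1.22, SE 0.69, p = 0.105, adjusted p = 1). Mrpl42 had 476 and 474 CPM in CD8-depleted sets, 463 and 658 CPM in CD3e-/- sets, and 1494 and 759 CPM in WT sets, with the 2 WT sets further from each other than the nearer one was from the CD8-depleted sets. Its value in WT set 1 came from all 59 cells, with 5.11% of the counts in the highest cell. Mrpl55, a homologue of a bacterial large-subunit protein, had 155 and 191 CPM in CD8-depleted sets, 101 and 240 CPM in CD3e-/- sets, and 404 and 330 CPM in WT sets.

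In the small subunit, Mrps14 and Mrps2, both with bacterial homologues, gave the smallest p among the lower members. Mrps14 had 90.9 and 69.5 CPM in CD8-depleted sets, 44.7 and 179 CPM in CD3e-/- sets, and 225 and 137 CPM in WT sets (log2 −1.12, SE 0.91 over 6 sets). Mrps2 had 14.8 and 11.5 CPM in CD8-depleted sets, 6.62 and 32.8 CPM in CD3e-/- sets, and 38.4 and 24.7 CPM in WT sets (log2 −1.22, SE 0.90). In cells thinned to 50000 nuclear counts, Mrps14 was detected in 71.9% and 54.3% of CD8-depleted cells and in 96.6% and 79.03% of WT cells. Neither gene passed the adjusted threshold, with adjusted p = 1 over 6 sets and 0.227 for Mrps14 and 0.41 for Mrps2 over 5 sets.

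A minority ran the other way. Mrpl52, a protein of mitochondrial ribosomes without a bacterial homologue, had 101 and 139 CPM in CD8-depleted sets, 29.8 and 75.8 CPM in CD3e-/- sets, and 52.8 and 63.97 CPM in WT sets (log2 1.01, SE 0.80, adjusted p = 1 over 6 sets; log2 0.99, SE 0.40, adjusted p = 0.365 over 5). Mrpl23, at the exit of the peptide tunnel, had 351 and 643 CPM in CD8-depleted sets, 19.8 and 318 CPM in CD3e-/- sets, and 271 and 329 CPM in WT sets (log2 0.69, SE 1.20). Mrpl21 was higher by 0.65 on the log2 scale (SE 1.01) and Mrpl47 by 0.63 (SE 1.19), and both CD8-depleted sets lay above both WT sets in each of these 4 genes. The head-to-head pair split. Mrpl46 had 109.5 and 114 CPM in CD8-depleted sets and 85.6 and 92.9 CPM in WT sets, whereas Mrps11 had 47.1 and 50.1 CPM in CD8-depleted sets and 65.8 and 75.3 CPM in WT sets. Reads in the overlap of these 2 genes cannot be told apart where strand is not recorded.

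**Figure D3:**
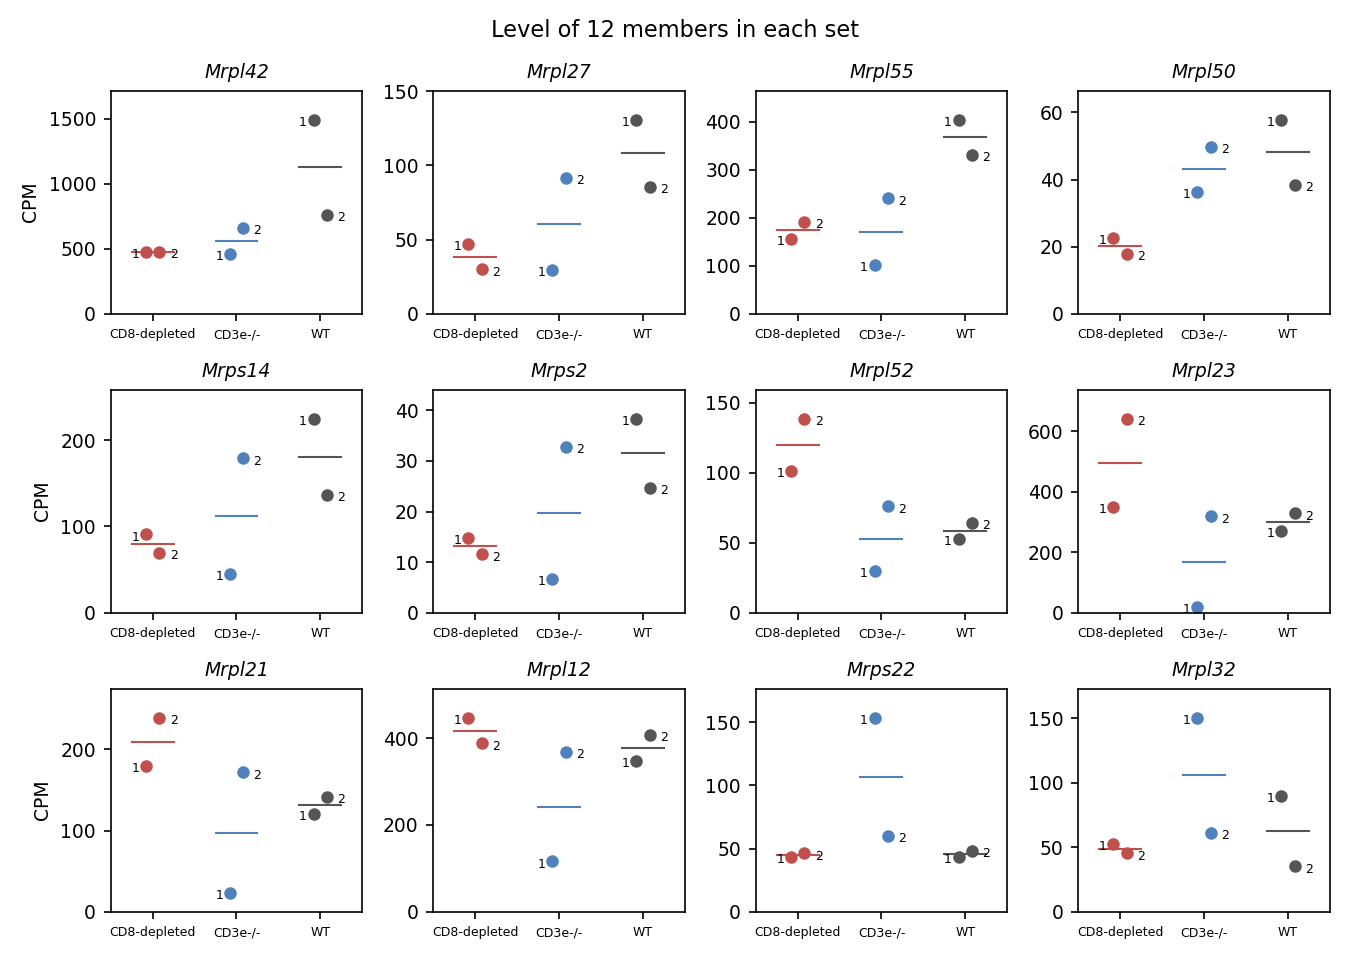
Level in CPM (y axis, linear, from 0) of 12 members in the CD8-depleted, CD3e-/- and WT sets; each point is 1 set with its number beside it and the line is the mean of 2 sets. Mrpl27, Mrpl50, Mrpl55, Mrps14 and Mrps2 show both CD8-depleted points below both WT points, Mrpl52, Mrpl23 and Mrpl21 show them above, and Mrps22 and Mrpl32 are highest in CD3e-/- set 1.

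Proteins with a clear role at the working sites of the ribosome or in human heart disease varied as follows. Mrpl12 of the stalk had 447 and 388 CPM in CD8-depleted sets, 116 and 368 CPM in CD3e-/- sets, and 348 and 408 CPM in WT sets, and Mrpl45 at the membrane had 361 and 279, 67.8 and 267, and 261 and 329 CPM in the same order, so that both genes overlapped between CD8-depleted and WT. Mrps12, near the decoding centre, had 75.4 and 55.9 CPM in CD8-depleted sets, 36.4 and 79.8 CPM in CD3e-/- sets, and 103 and 83.1 CPM in WT sets, with both CD8-depleted sets below. Of the genes mutated in human cardiomyopathy, Mrpl3 had 50.1 and 54.7 CPM in CD8-depleted sets, 67.8 and 77.7 CPM in CD3e-/- sets, and 81.1 and 62.7 CPM in WT sets, again without overlap between CD8-depleted and WT. Mrpl44 had 50.4 and 60.1 CPM in CD8-depleted sets, 11.6 and 68.6 CPM in CD3e-/- sets, and 81.1 and 39.8 CPM in WT sets, the CD8-depleted sets lying between the WT sets. Mrps22 was within 43.3 to 48.3 CPM in all CD8-depleted and WT sets.

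The paralogues Mrps18a, Mrps18b and Mrps18c, of which the product of Mrps18a sits in the large subunit, had 108 and 128, 82.9 and 51.6, and 189 and 239 CPM in CD8-depleted sets, and 124 and 115, 64.5 and 61.6, and 195 and 158 CPM in WT sets. The CD8-depleted and WT sets of all 3 overlapped. Mrps30, another protein of the large subunit in spite of its name, had 46.1 and 32.9 CPM in CD8-depleted sets and 43.3 and 42.99 CPM in WT sets. Mrps36, which belongs to the 2-oxoglutarate dehydrogenase complex, had 147 and 102 CPM in CD8-depleted sets and 244 and 154 CPM in WT sets. Placing these genes by structure, with Mrps36 out, left the log2 differences of CD8-depleted over WT at −0.31 for the large and −0.26 for the small subunit.

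CD3e-/- sets were compared with WT sets to ask how the cardiomyocytes of mice without T cells differed. Of 77 members, 74 had a log2 fold change below 0 (CD3e-/- over WT), against 49.8% of all genes, with a median of −0.97 for members and 0.01 for all genes. No member passed an adjusted p of 0.05 with edgeR (0.0% of all genes), DESeq2 or limma, and none had an unadjusted p under 0.05 (8.28% of all genes, 0.332% lower and 7.95% higher). Both CD3e-/- sets lay below both WT sets in 29 members (37.7%), against 8.7% of all genes, and above them in 2 (2.6%, Mrpl20 and Mrps22), against 28%. All such counts of sets without overlap compare CPM without the scaling for library composition (TMM factors) that the fold changes use. In CD3e-/- set 1, 1 cell gave 70.8% of the Mrpl20 counts. The size of the fold changes rested on CD3e-/- set 1. Without it, 62 of 77 members were below 0 (53.4% of all genes) and the median was −0.34 (−0.06 for all genes), with no member under an unadjusted p of 0.05 (2.46% of all genes, 0.92% lower and 1.54% higher) and none past the adjusted threshold (0.127%). CD3e-/- set 2 lay below both WT sets in 29 members, against 18.3% of the genes in this fit, and above both in 17, against 40.3%. Beside this, all 8 cardiomyocyte markers were below 0 over 6 sets (median −1.14) and 6 of 8 over 5 sets (−0.44), with none called. All 8 fibroblast markers were above 0 over 6 sets (median 3.72, none called), and over 5 sets, with a median of 3.15, Postn, an extracellular matrix protein, passed the adjusted threshold (log2 5.09, SE 1.04, adjusted p = 0.0235 by edgeR). Of 7 endothelial markers, 6 were above 0 over 6 sets (median 0.77) and 6 below 0 over 5 sets (−0.76). The part of these markers in the result was not tested. With CD3e-/- set 1 as the only CD3e-/- set, whose spread is then taken from the other groups, the median was −2.98 and 67 members were called, all lower, while 33.2% of all genes were called in either direction.

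The scaling bore on these values. Without TMM factors, which correct for the composition of each library, the median of all genes over 6 sets was 0.68 and that of members −0.59, so that members lay 1.27 below the median gene, against 0.99 below it with TMM factors. Over 5 sets without TMM factors the medians were 0.13 for all genes and −0.14 for members, and 62.3% of members were below 0, against 80.5% with TMM factors.

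Mrpl10, at the base of the stalk, had 28.1 and 61.02 CPM in CD3e-/- sets and 105 and 88.9 CPM in WT sets, with the smallest p of the members (log2 −1.50, SE 0.77, p = 0.079, adjusted p = 0.649 over 6 sets; log2 −0.87, SE 0.51, adjusted p = 1 over 5). Mrpl55 had a log2 fold change of −1.49 (SE 0.89) over 6 sets and −0.81 (SE 0.44) over 5. Mrpl14, at the face of the large subunit towards the small one, had 46.3 and 160 CPM in CD3e-/- sets and 214 and 238 CPM in WT sets. Mrps27, an RNA-binding protein with pentatricopeptide repeats, had 31.4 and 73.4 CPM in CD3e-/- sets and 116 and 85.3 CPM in WT sets. In each of these 4 genes set 1 was the lowest and set 2 was also below both WT sets.

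Mrps22, Mrpl57 and Mrpl32 were the 3 members with a log2 fold change above 0 over 6 sets, at 0.42 (SE 0.63), 0.25 (SE 0.62) and 0.057 (SE 0.66). Each was highest in CD3e-/- set 1. Mrps22 had 154 and 60.1 CPM in CD3e-/- sets and 43.6 and 48.3 CPM in WT sets, Mrpl57 had 149 and 62.2 CPM against 62.6 and 43.3 CPM, and Mrpl32, which is matured by the m-AAA protease, had 150.5 and 61.2 CPM against 90.0 and 35.1 CPM. In set 1, 1 cell gave 74.2% of the Mrps22 counts, 44.4% of those of Mrpl57 and 41.8% of those of Mrpl32. Over 5 sets the log2 fold change of Mrpl32 was −0.16.

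CD3e-/- and CD8-depleted sets were compared to see whether loss of all T cells and of CD8+ T cells differed. Over 6 sets 69 of 77 members were below 0 (CD3e-/- over CD8-depleted; 47.4% of all genes) with a median of −0.67 (0.07 for all genes), and over 5 sets 33 were below 0 (50.4%) with a median of 0.056 (−0.0098). With CD3e-/- set 1 as the only CD3e-/- set, the median was −2.50 and 62 members were called, again all lower, while 25.1% of all genes were called in either direction. No member passed an adjusted p of 0.05 with edgeR over 6 sets (0.0% of all genes) or 5 sets (0.015%), nor with DESeq2 or limma. An unadjusted p under 0.05 was found in none over 6 sets (3.9% of all genes, 0.402% lower and 3.5% higher) and in 2 over 5 sets (3.16% of all genes, 1.4% lower), Mrpl27 (log2 1.06, SE 0.48) and Mrps14 (log2 0.97, SE 0.44), both higher, against 1.76% of all genes in that direction. Both CD3e-/- sets lay below both CD8-depleted sets in 13 members (7.91% of all genes) and above both in 8 (26.4%). CD3e-/- set 2 alone lay below both in 14 (21.7% of the genes in that fit) and above both in 44 (43.9%). Both comparisons with WT share the WT sets, and this one shares its sets with both.

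The members with the smallest p over 6 sets were lower in CD3e-/- sets: Mrps5 (log2 −1.44, SE 0.73), Mrpl52 (−1.54, SE 0.81), Mrps27 (−1.25, SE 0.79) and Mrpl23 (−1.76, SE 1.23), each with adjusted p = 0.942 by edgeR. Mrps5, near the entry of the messenger RNA channel, had 16.5 and 27.4 CPM in CD3e-/- sets and 43.8 and 45.3 CPM in CD8-depleted sets. On the higher side stood Mrpl50 (log2 0.61, SE 0.69), Mrpl57 (0.52, SE 0.63), Mrps22 (0.47, SE 0.63) and Mrpl32 (0.33, SE 0.67).

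**Figure D4:**
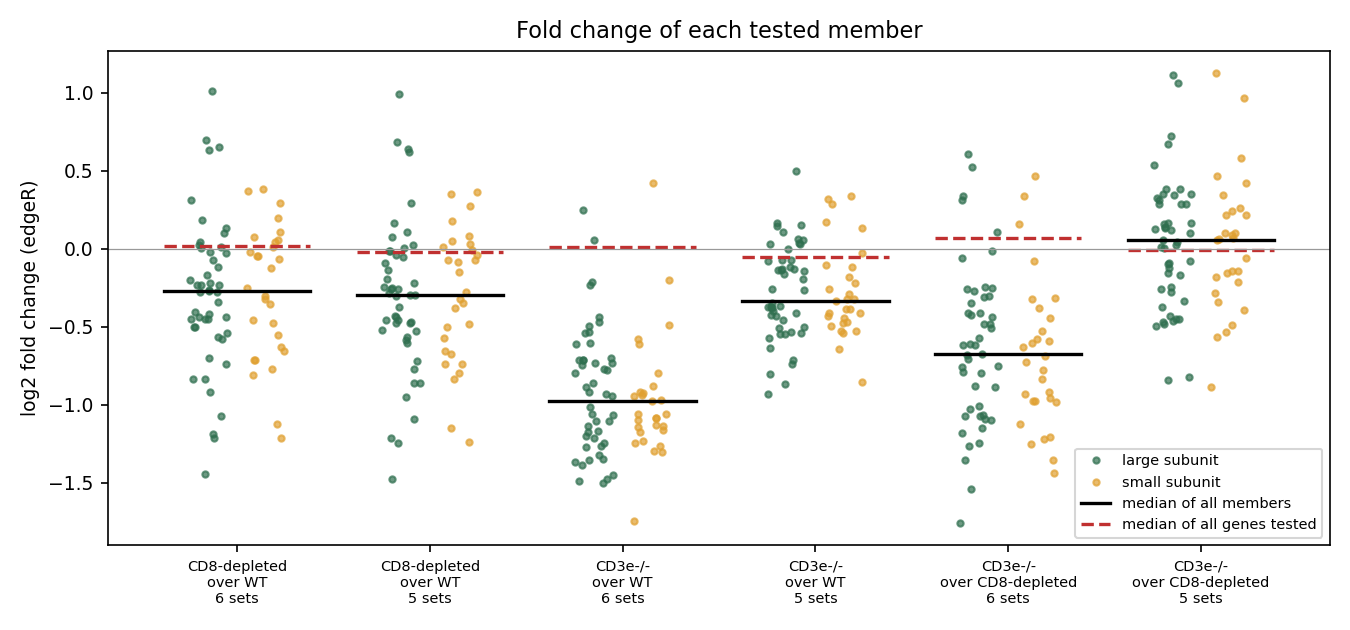
Log2 fold change of each of the 77 tested members (points, by subunit) in the 3 comparisons over 6 and 5 sets, with the median of members (solid line) and of all genes tested (dashed line). The member medians are −0.27 and −0.30 for CD8-depleted over WT, −0.97 and −0.34 for CD3e-/- over WT, and −0.67 and 0.056 for CD3e-/- over CD8-depleted.

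Cytosolic ribosomal protein genes, the counterpart in the cytosol, did not share the direction of CD8-depleted over WT. Their summed level was 21423 and 25765 CPM in CD8-depleted sets, 8961 and 18561 CPM in CD3e-/- sets, and 18310 and 16769 CPM in WT sets, and 68 of 78 tested had a log2 fold change above 0 (median 0.43) with none past the adjusted threshold. Of 38 complex I subunits encoded in the nucleus, which work beside products of mitochondrial translation, 18 were below 0 with a median of 0.02. In CD3e-/- over WT, 74 of 78 cytosolic ribosomal protein genes were below 0 over 6 sets (median −0.70) and 45 of 79 over 5 sets (−0.045), and 37 of 38 complex I genes were below 0 over 6 sets (−1.15) and 35 over 5 sets (−0.35), beside medians of −0.97 and −0.34 for the members. None of these genes passed the adjusted threshold.

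Within 5 of the 6 sets, cells with a larger mt- share had lower member levels by rank. The median cell had 9023 and 8851 CPM of member transcripts in the CD8-depleted sets, 4495 and 9617 CPM in the CD3e-/- sets, and 11741 and 10257 CPM in the WT sets. The quartiles of the CD8-depleted sets (8055 to 9651 and 7680 to 10179 CPM) and of the WT sets (10807 to 12555 and 9523 to 11508 CPM) overlapped for WT set 2 with either CD8-depleted set, and not for WT set 1. Spearman's rho of the member level with the mt- share was −0.34 and −0.31 in CD8-depleted sets (62 and 49 cells), 0.65 in CD3e-/- set 1 (11 cells), −0.44 in CD3e-/- set 2 (77 cells), and −0.56 and −0.42 in WT sets (59 and 62 cells). Pearson's r was −0.34 and −0.012, 0.78 and −0.37, and −0.59 and 0.46 for the same sets, so that in CD8-depleted set 2 and WT set 2 it did not follow the ranks. Both measures share the nuclear counts of the cell and its depth, and the mt- share and depth both differed between groups. Median nuclear counts per cell were 96256 and 98953 in CD8-depleted sets, 40699 and 223873 in CD3e-/- sets, and 413073 and 242696 in WT sets. Spearman's rho of the member level with nuclear counts was 0.28 and 0.40, −0.3 and 0.44, and 0.56 and 0.35 in the same order. The parts of the mt- share and of depth in the difference between CD8-depleted and WT were not tested.

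One cell of WT set 2 had a member level of 578 CPM, against at least 7251 CPM in the other 61 cells. Its mt- share was 39.7%, and 92.0% of its nuclear counts lay in 6 predicted genes led by Gm10800. It held 2.66% of the nuclear counts of the set, and without it the summed member level of WT set 2 was 10779 CPM, rho was −0.49 and r was −0.41.

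Within each set, the large-subunit and small-subunit levels correlated positively over cells. Both levels share the nuclear counts of the cell and its depth, and the part of these was not tested. Pearson's r between the subunits was 0.33 and 0.54 in CD8-depleted sets, 0.46 and 0.53 in CD3e-/- sets, and 0.43 and 0.91 in WT sets. Between the large subunit and cytosolic ribosomal protein genes it was −0.20 and 0.34, 0.68 and −0.098, and −0.028 and 0.69 in the same order. Spearman's rho between the large-subunit and small-subunit levels was 0.34 and 0.51 in CD8-depleted sets, 0.35 and 0.38 in CD3e-/- sets, and 0.44 and 0.54 in WT sets, and the median ratio of large to small per cell was 2.46 and 2.73 in CD8-depleted sets, 3.64 and 2.38 in CD3e-/- sets, and 2.64 and 2.698 in WT sets. In cells thinned to 50000 nuclear counts, the median number of members with a read was 60 and 54 in CD8-depleted sets, 34.5 (4 cells) and 63 in CD3e-/- sets, and 64 and 60 in WT sets, against 66 and 59, 31 and 70, and 71 and 68 members before thinning. After thinning the CD8-depleted and WT values met at 60, whereas before it both CD8-depleted values were below both WT values. The summed levels of the thinned cells did not overlap between these groups. The large-subunit sum was 6308 and 6435 CPM in CD8-depleted sets and 8516 and 7358 CPM in WT sets. The small-subunit sum was 2590 and 2455 CPM against 3142 and 2738 CPM.

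**Figure D5:**
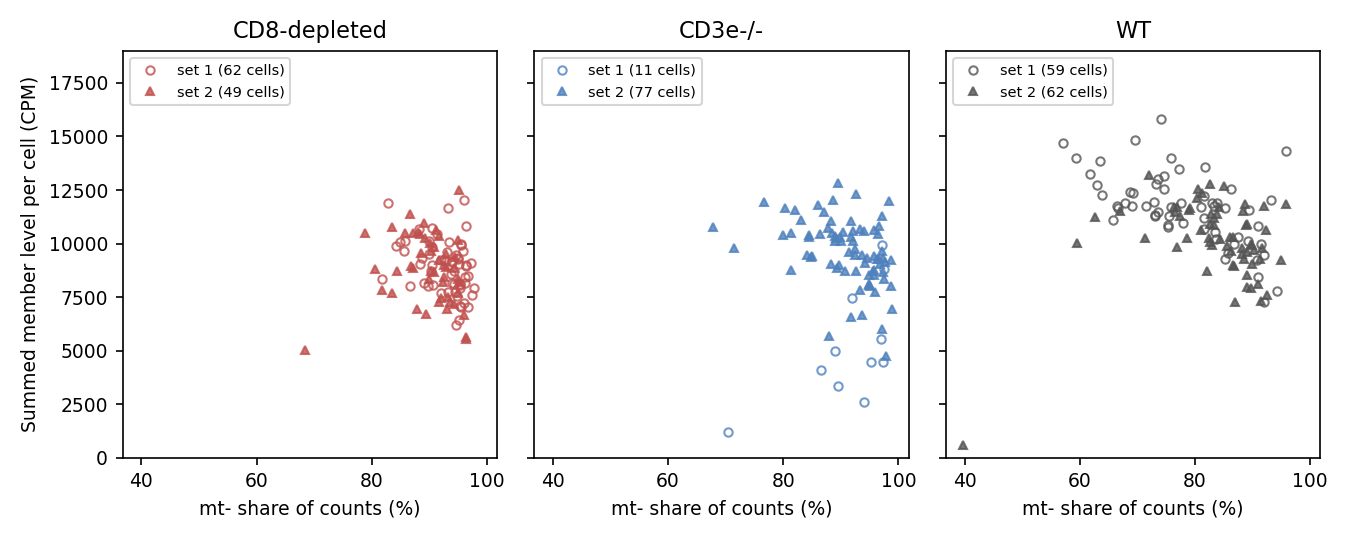
Summed member level (y axis, CPM of nuclear counts) against the mt- share of all counts (x axis, percent) in each of 320 cells, by group; open circles are set 1 and filled triangles set 2. Cells of the CD8-depleted and CD3e-/- groups crowd at high mt- shares, WT cells spread down to lower shares and higher levels, and 1 WT cell lies at 578 CPM and 39.7%.

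The rest of the mitochondrial translation machinery was read from lists of genes with other symbols. Of 5 mitochondrial ribosomal proteins named otherwise, 4 were below 0 in CD8-depleted over WT and 5 in CD3e-/- over WT (medians −0.21 and −1.21). Chchd1 had 127 and 111 CPM in CD8-depleted sets, 33.1 and 139 CPM in CD3e-/- sets, and 187 and 139 CPM in WT sets. Aurkaip1 had 119.7 and 106 CPM in CD8-depleted sets, 57.9 and 108 CPM in CD3e-/- sets, and 143 and 142 CPM in WT sets. Of 13 tested translation factors, 8 and 12 were below 0 in the same comparisons (medians −0.32 and −0.65). Mrrf, the ribosome recycling factor, had 25.4 and 25.2 CPM in CD8-depleted sets, 41.3 and 24.03 CPM in CD3e-/- sets, and 53.3 and 43.2 CPM in WT sets. Mtrf1l, with the next smallest p in CD8-depleted over WT, was higher (log2 0.85, SE 0.73). It had 29.8 and 18.1 CPM in CD8-depleted sets, 33.1 and 12.3 CPM in CD3e-/- sets, and 11.99 and 14.5 CPM in WT sets.

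Of 22 genes that charge mitochondrial tRNAs, 17 and 18 were below 0 (medians −0.36 and −0.86). Wars2, the tryptophanyl-tRNA synthetase, had 4.06 and 4.205 CPM in CD8-depleted sets, 8.27 and 4.90 CPM in CD3e-/- sets, and 13.9 and 28.9 CPM in WT sets (log2 −2.44, SE 0.93, p = 0.024, adjusted p = 1 in CD8-depleted over WT by edgeR). Of 26 assembly and rRNA modification genes, 16 and 22 were below 0 (medians −0.13 and −0.68), and of 16 tested genes of mitochondrial transcription and RNA, 13 and 14 (medians −0.47 and −0.67). In CD8-depleted over WT their smallest p fell to lower genes, Tfb1m (log2 −1.29, SE 0.84) and Grsf1 (−0.93, SE 0.79). In CD3e-/- over WT it fell to higher genes, Ddx28 (4.06, SE 1.12) and Rnaseh1 (2.92, SE 1.35). Ddx28 had 359 and 11.7 CPM in CD3e-/- sets and 6.20 and 4.43 CPM in WT sets. Rnaseh1 had 97.6 and 1.75 CPM against 4.47 and 1.85 CPM. Over 5 sets the CD3e-/- over WT medians of the last 2 lists were −0.025 and 0.028. No gene of these 5 lists passed an adjusted p of 0.05 over 6 or 5 sets in either comparison with WT, and the lists were chosen with earlier results of these data known.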

How the data were processed

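Single cardiomyocytes were sequenced with Smart-seq2. The submitters' processing notes list fastp 0.21.0, STAR 2.7.5c, featureCounts and mm10. The table deposited by the authors holds whole-number counts per gene, not normalized. Without molecular identifiers, reads are not independent molecules. The study's methods name another aligner and build, and the labels were followed for the table. The smallest and largest nuclear totals per cell kept were 16906 and 2059675 counts, so precision differs widely between cells, and low members in the shallow CD3e-/- set 1 rest on few counts.

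Cells with under 3000 detected genes (53) and 1 pair of identical cells were left out. Counts were summed per set, the 13 mt- genes were left out of tests and totals, and CPM were computed over nuclear counts. Set sums were tested with edgeR 4.0.16 (filterByExpr, TMM factors, quasi-likelihood F test, two-sided) in R 4.3.3, and p-values were adjusted over all genes tested by Benjamini-Hochberg. The procedure was also run on simulated data. The outcome of that run is not given here, so it does not show how the procedure performs at the spread between these sets or with a set that stands apart. Alternatives were DESeq2 1.42.0, limma 3.58.1 (limma-trend on log2 of mean CPM + 1), no TMM factors, no low-count filter, other cell filters, mt- genes kept, cells thinned to 50000 nuclear counts, leaving out each set in turn, and blocking on the number of the set. Members named were the 3 highest and lowest per kb in each subunit, the 4 with the smallest p in each direction and comparison, a panel of 12 chosen for role, and in other lists some of those with the smallest p. Genes outside this rule (Mrpl20, Mrpl30, Mrpl46, Mrpl51 and Mrps11) are named after their values or promoters were seen. The members and lists were chosen with earlier results of these data known. Sham cells were not analysed here.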

Additional observations from a re-analysis of the deposited data

How the results depend on the processing

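Whether a member passed the adjusted threshold did not depend on the processing in CD8-depleted over WT, except that DESeq2 over 5 sets called 2 (1.33% of all genes with an adjusted p). The cause was not tested. With 1 set left out at a time, members called ranged from 0 to 67 in CD3e-/- over WT (medians −2.98 to −0.34) and from 0 to 62 in CD3e-/- over CD8-depleted (medians −2.50 to 0.056, with 33 to 74 members below 0), the high counts coming without CD3e-/- set 2. In CD8-depleted over WT the median ranged from −0.44 to −0.16 and 46 to 64 members were below 0. Alternatives over 5 sets were chosen after seeing the data. In CD3e-/- over CD8-depleted they put 37 members below 0 with DESeq2, 44 in thinned cells, 25 with cells weighted alike, 22 without TMM factors and 37 with a replicate block, and in CD3e-/- over WT 48 without TMM factors. With mt- genes in the totals the log2 difference was −1.57 (large) and −1.53 (small) for CD8-depleted over WT and −1.79 (large) for CD3e-/- over WT. Without Mrpl42 the log2 difference of the large to small ratio, CD8-depleted over WT, was 0.061, against −0.040 with it, and the large-subunit difference was −0.21, against −0.32. Among the members named in the text, the log2 fold changes of 3 turned below 0, with no adjusted p under 0.05 before or after. In CD3e-/- over WT, Mrpl32 was −0.062 without a low-count filter, −0.65 in cells with at least 5000 detected genes, −0.72 in thinned cells, −0.42 to 0.51 with 1 set left out, and over 5 sets −0.16 with DESeq2, −0.40 in thinned cells, −0.16 with cells weighted alike, −0.15 without the highest cell of each gene and −0.031 without TMM factors. Mrps22 was −0.71 in cells with at least 5000 detected genes, −0.91 in thinned cells, and over 5 sets −0.14 in thinned cells and −0.014 with cells weighted alike. In CD3e-/- over CD8-depleted, Mrpl32 was −0.39 in cells with at least 5000 detected genes, −0.52 in thinned cells and −0.18 in thinned cells over 5 sets, and Mrps22 was −0.079 and −0.91 in those filters over 6 sets and, over 5 sets, −0.13 in thinned cells and −0.10 with cells weighted alike. Mrpl50 was −0.14 in cells with at least 5000 genes and −0.35 to 1.11 with 1 set left out.

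Deviations of sets with the same number correlated at −0.14 (CD8-depleted and CD3e-/-), −0.049 (CD8-depleted and WT) and 0.078 (CD3e-/- and WT). These values gave no sign of pairing by set number and, with 2 sets per group, cannot exclude it. With a replicate block over 6 sets no member was called in any comparison, and the medians were −0.21, −1.26 and −0.95 for CD8-depleted over WT, CD3e-/- over WT and CD3e-/- over CD8-depleted. Of the other values, 275 summary values moved by less than the spread between sets or, for counts of members, stayed within a fixed ratio. Direction was not part of this rule, and some changed sign, such as the large-subunit log2 difference of CD3e-/- over CD8-depleted without CD3e-/- set 1. The 457 single-gene values counted as unchanged kept their side of the threshold and their direction. With 2 sets per group, of which 1 stood apart, and a coefficient of variation between sets of 0.82 over 6 and 0.63 over 5 sets, differences of the size seen in most members could not be separated from the spread.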

Other observations

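Among the other genes of mitochondrial translation, Lars2, the leucyl-tRNA synthetase, was listed at 7282 and 11733 CPM in CD8-depleted sets, 23657 and 1753 CPM in CD3e-/- sets, and 8181 and 4530 CPM in WT sets. The reads behind its counts were not examined, and its highest value lay in CD3e-/- set 1, which stood apart. In CD8-depleted set 2 and CD3e-/- set 1 the level listed for this single gene exceeded the summed level of all 78 members (9126 and 4414 CPM). Its log2 fold change in CD3e-/- over WT was 0.027 (SE 1.58, adjusted p = 0.995 by edgeR) over 6 sets and −2.02 (SE 0.55, adjusted p = 0.41) over 5 sets without CD3e-/- set 1, and it was chosen after its values were seen.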
